A study of Oryza sativa with 6 samples.

Results

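Brassinosteroids are steroid hormones of plants that promote cell elongation, and in rice they are best known for bending the leaf at the lamina joint. Their level is set by cytochrome P450 enzymes that make them and by other P450 enzymes that inactivate them. Atypical helix-loop-helix proteins, which lack a DNA-binding basic region, act in the growth response by pairing with other helix-loop-helix proteins and blocking or freeing them. The 5 genes described here comprise 3 helix-loop-helix genes, the synthesis gene CPD2 and the inactivation gene CYP734A4. BHLH172 (LOC4340551, also called BU1 and ILI4) encodes a positive regulator of the brassinosteroid response, and ILI6 (LOC4331776, also called PGL1) encodes an atypical helix-loop-helix protein that counteracts the grain-length repressor APG. BHLH175 (LOC4337280, also called IBH1) encodes an inhibitor of cell elongation that is itself held back by the helix-loop-helix protein ILI1. CPD2 (LOC4351461, also called CYP90A4) and CYP734A4 (LOC4341450) are the enzyme genes.

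All probe sets that the platform annotation assigned to these genes were taken, which gave 7 probe sets for 5 of the 17905 genes named on the array. A probe set is a group of short probes that together report 1 intensity. BHLH175 had 3 probe sets, numbered here by falling brightness, and each of the other genes had 1. Probe set 3 of BHLH175 lay under the filter for dim probe sets and was not tested. The genes had been picked because of their changes between the groups, so their values are given below as a description with no p-value. The number of them past the threshold of the fit over all probe sets is stated once, and nothing rests on it.

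The plants were IR64 seedlings (Oryza sativa subspecies indica) raised in light for 7 days, and RNA was taken from the seedling without separating organs, as far as the labels state. Control seedlings were mock-treated with 0.1% dimethyl sulfoxide, and the others were kept in 50 µM of the auxin indole-3-acetic acid (IAA) or 50 µM of the cytokinin benzyl aminopurine (BAP). Each sample was an equal pool of material from 1 h and 3 h of treatment, so early and later responses were mixed. Each group had 2 arrays, which the series design calls biological replicates, giving 6 Affymetrix rice arrays in all.

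With 2 arrays a group, all values below have limited precision, and array medians of the deposited intensity spanned 16.6 to 23.1. Both BAP arrays had another hybridization date in the file headers than the other 4, which leaves BAP and that date impossible to separate (they cannot be told apart). Hormone and fluidics module are confounded too: the controls sat in modules 1 and 2, the treated samples in 3 and 4. BAP array 2 stood apart from BAP array 1 on the second principal component (-40.12 against 4.14). Of 4 green tissue marker genes, RBCS, CAB2R and PSAH were among the bright probe sets on every array and RBCS1 was dim, at 12.7 or less. All 7 root markers were bright enough to be tested. In limma 0 of the 3 tested green markers were past the threshold with either hormone (also 0 at an unadjusted p under 0.05), whereas the root markers NIP2-1 and LSI2 fell with BAP (limma adjusted p = 0.00837 and 0.0126). The other 5 root markers did not pass, with log2 values below 0 for IRT1, HAK1, SHR1 and PHT1-6 and of 0.17 for SCR1, and with IAA 0 of 7 passed, with HAK1 (0.20) and SHR1 (0.26) above 0. The summed root marker intensity was 6364 to 6532 in the control arrays, 4930.3 to 5177 in the IAA arrays and 3458 to 3509 in the BAP arrays. NIP2-1 was the brightest of the 7, and without it the sums were 2619.8 and 3224, 2443 and 2479, and 1590.1 and 1599 in the same order of groups.

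Intensities below are quantile normalized, in arbitrary linear units, and a change is the difference of group means of log2(intensity + 16). BHLH172 had the largest log2 change against control of the 5 genes. Its intensity was 110.2 and 110.5 on the control arrays, 1298 and 750.4 on the IAA arrays, and 159.8 and 211 on the BAP arrays. Both IAA arrays were far above every other array, and both BAP arrays lay slightly above both control arrays. The group means were 110.4 ± 0.189 in the control, 1024 ± 387 with IAA and 185 ± 36.2 with BAP (SD, n = 2 arrays each). The log2 difference from control was 2.99 (SE 0.24) with IAA, rank 12 from the highest of 34316 tested probe sets, and 0.66 (SE 0.24) with BAP. The 2 IAA arrays themselves differed, and the IAA change was 2.59 without IAA array 1 and 3.37 without IAA array 2. In seedlings, more cells that express a gene and more RNA per cell cannot be told apart in such values.

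ILI6 went the other way. It read 145 and 155 on the control arrays, 50.4 and 47.6 on the IAA arrays, and 83.8 and 80.4 on the BAP arrays. The 3 groups were cleanly separated, with the control highest, BAP between and IAA lowest, and the replicates of each group were close. The means were 150.2 ± 7.06, 49.0 ± 1.97 and 82.1 ± 2.41 (SD, n = 2 arrays each). The log2 difference from control was -1.35 (SE 0.16) with IAA and -0.76 (SE 0.16) with BAP. BHLH172 and ILI6 therefore moved apart within each hormone-treated array: relative to the control mean, the log2 change of BHLH172 exceeded that of ILI6 by 4.70 and 3.99 on the IAA arrays and by 1.21 and 1.63 on the BAP arrays. In the control arrays the same quantity was 0.04 and -0.04. Since both genes had been picked because of their changes, nothing rests on this difference.

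**Figure D1:**
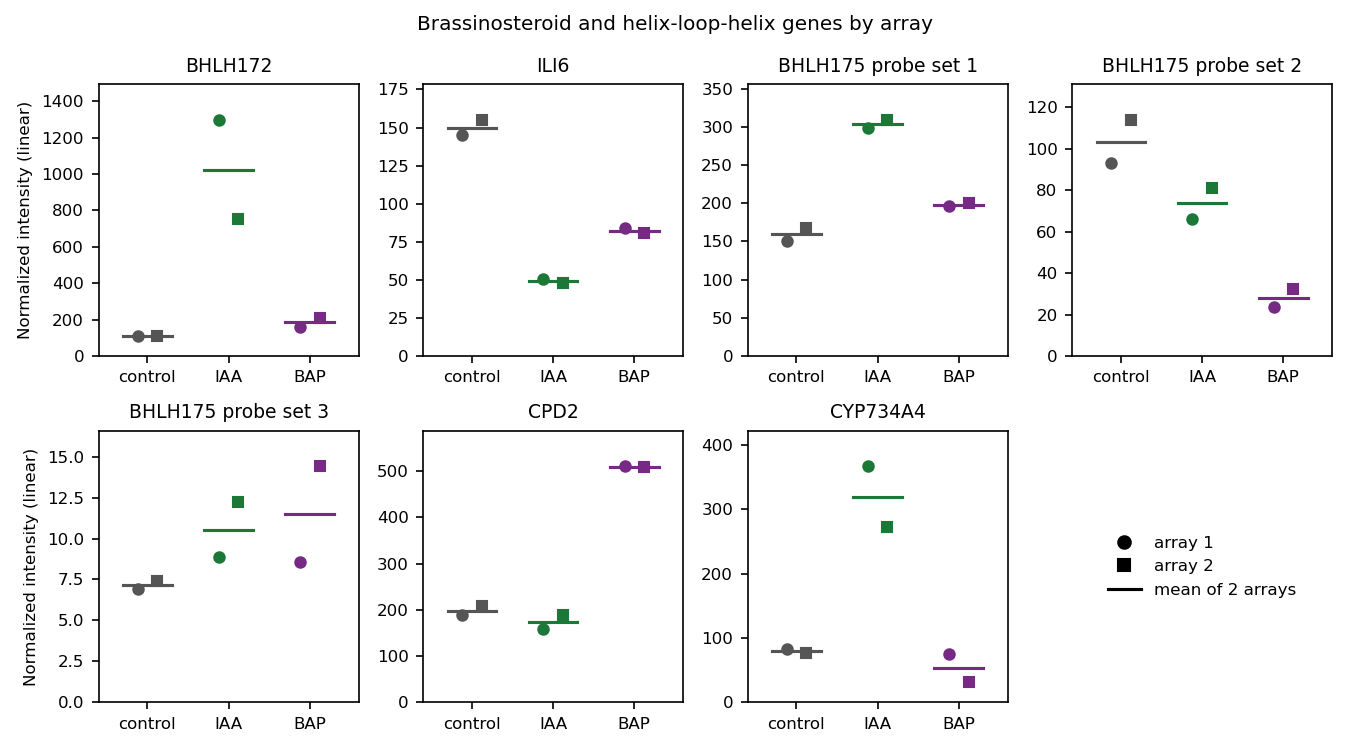
Normalized intensity (vertical axis, linear, arbitrary units, a separate scale in each panel) of the 7 probe sets in control, IAA and BAP seedlings. Circles are array 1, squares array 2 and bars the mean of 2 arrays; BHLH172 and CYP734A4 were highest with IAA, CPD2 with BAP and ILI6 in the control, and the BHLH175 probe sets differed in their order.

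The 3 probe sets of BHLH175 did not give 1 pattern. Probe set 1, the brightest, read 151 and 167 in the control, 299 and 309 with IAA, and 196 and 200.1 with BAP. It was highest with IAA, and its BAP arrays lay between the other groups without overlap. Probe set 2 read 93.0 and 114 in the control, 66.2 and 81.2 with IAA, and 23.5 and 32.5 with BAP. Here the control was highest and BAP lowest, so the order differed from that of probe set 1. Probe set 3 was near background, at 6.92 and 7.39 in the control, 8.90 and 12.2 with IAA, and 8.57 and 14.4 with BAP, and its IAA and BAP arrays overlapped.

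On the log2 scale, probe set 1 of BHLH175 changed by 0.87 (SE 0.13) with IAA and 0.29 (SE 0.13) with BAP. Probe set 2 changed by -0.42 (SE 0.20) with IAA and -1.45 (SE 0.20) with BAP, the latter at rank 10 from the lowest of all tested probe sets. The 2 brighter probe sets thus had opposite signs in both comparisons. These signs held in each of the 14 other settings tried, but several of those settings leave a log2 change as it is, so this adds little. Which part of the transcript each probe set reads was not examined, and no direction for BHLH175 as a gene is given.

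The enzyme genes were highest on the arrays of different hormones. CPD2, whose product acts in brassinosteroid synthesis, read 189 and 208 in the control, 159 and 188 with IAA, and 509.8 and 509 with BAP. Both BAP arrays stood well above the other 4, and the higher IAA array lay just under the lower control array. The means were 199 ± 13.4 in the control, 173 ± 20.4 with IAA and 509.6 ± 0.301 with BAP (SD, n = 2 arrays each). The log2 change was 1.29 (SE 0.14) with BAP and -0.18 (SE 0.14) with IAA. The IAA value was little larger than its SE, so CPD2 is not distinguished between control and IAA here.

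CYP734A4, whose product inactivates brassinosteroids, read 82.6 and 76.3 in the control, 367 and 272 with IAA, and 75.6 and 32.2 with BAP. Both IAA arrays were above all others, and BAP array 1 lay at the level of the control arrays whereas BAP array 2 was lower. The means were 79.5 ± 4.44 in the control, 319 ± 66.9 with IAA and 53.9 ± 30.6 with BAP (SD, n = 2 arrays each). The log2 change was 1.80 (SE 0.28) with IAA and -0.52 (SE 0.28) with BAP. Array 2 carried the BAP value, which was -0.06 without BAP array 2 and -0.98 without BAP array 1.

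Taken relative to the control mean, the log2 change of CPD2 minus that of CYP734A4 was -2.30 and -1.67 on the IAA arrays and 1.35 and 2.27 on the BAP arrays. It was -0.11 and 0.11 on the control arrays. The difference between this synthesis probe set and this inactivation probe set thus had opposite signs on the arrays of the 2 hormones. Both genes had been picked because of their changes between the groups, so nothing rests on these signs. IAA and BAP were compared with the same 2 control arrays.

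**Figure D2:**
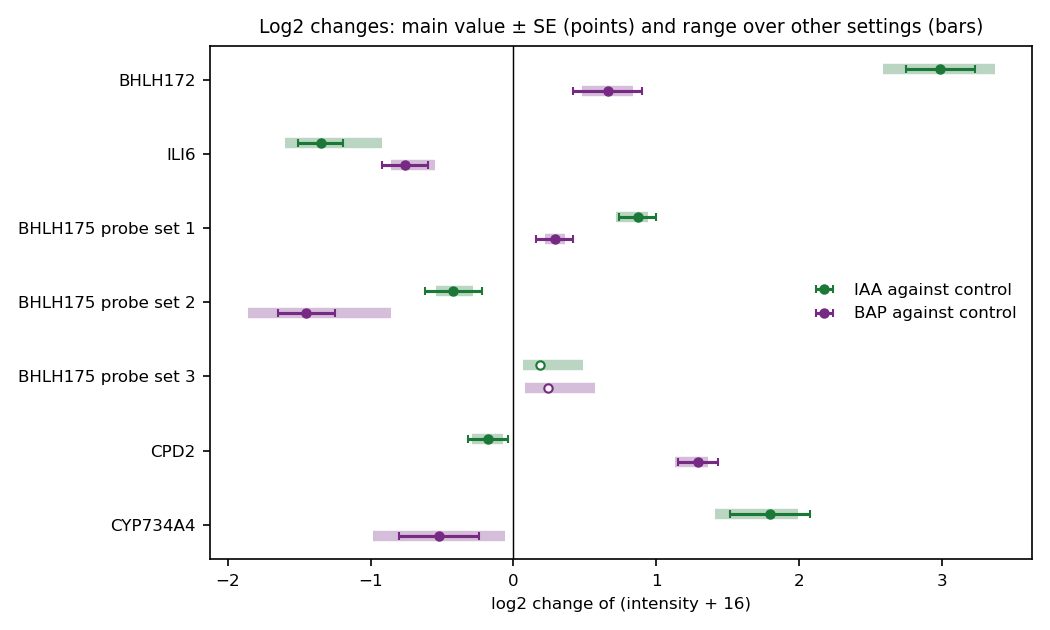
Log2 change of (intensity + 16) against control (horizontal axis) for each probe set, with IAA in green and BAP in purple. Points with error bars are the main value ± SE from limma, open points the probe set that was not tested (no SE), and pale bars the range over 14 other settings; no bar crosses 0.

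Set directly against each other, the hormones left the widest gaps for BHLH172 and CYP734A4. BHLH172 was lower with BAP than with IAA by a log2 difference of -2.33 (SE 0.24), and CYP734A4 by -2.32 (SE 0.28). CPD2 was higher with BAP by 1.48 (SE 0.14) and ILI6 by 0.59 (SE 0.16). For BHLH175 the value was -0.58 (SE 0.13) in probe set 1 and -1.03 (SE 0.20) in probe set 2. Among these 3 comparisons this is the only one in which both brighter BHLH175 probe sets had the same sign.

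The limma fit over all probe sets, with a Benjamini-Hochberg adjusted p of 0.05 as threshold, gives the background for these values. For IAA against control, 292 of 34316 probe sets (0.851%) were past the threshold. Among the 6 tested probe sets of the 5 genes 3 were past it as higher, against 0.632% of all, and 1 as lower, against 0.219%. For BAP against control 94 of all (0.274%) were past it, with 1 of the 6 higher (0.210% of all) and 1 lower (0.0641%). For BAP against IAA it was 769 of all (2.24%), with 1 of the 6 higher (1.11% of all) and 3 lower (1.13%). Leaving out any single array of the 2 groups compared lowered these counts by over 1.5 times, to between 85 and 178 for IAA against control, between 13 and 32 for BAP against control and between 310 and 430 for BAP against IAA. Of the 10 member calls, 6 were lost without control array 1, 6 without control array 2, 3 without any 1 of the other arrays, 6 with dim probe sets kept, 5 without an intensity trend, and 1 each with a pseudocount of 1, without normalization between arrays and with only the 4 arrays compared. Since the genes were chosen from such changes, nothing is read from these member counts. In all 3 comparisons the arrays of the 2 groups did not overlap for any of the 6 tested probe sets, against 44.0%, 37.6% and 39.2% of all tested probe sets.

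The 2 root markers that fell with BAP did so on the same arrays on which CPD2 was high and BHLH175 probe set 2 low. The summed root marker level was also lower on the IAA arrays, where ILI6 was lowest, with 0 of 7 markers past the threshold (2 at an unadjusted p under 0.05 in limma). The part of root transcripts in these values was not tested.

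Beyond the 5 genes, 25 other genes of brassinosteroid synthesis, inactivation and signalling and of the helix-loop-helix group had a probe set, and 24 of them were tested. The brightest probe set stood for each gene, whereas the shares of all probe sets count every tested probe set, dimmer ones included. The lists were chosen with earlier results of these data known. Nothing is therefore read from the shares of pathway genes, here or in the paragraphs below. In limma, 0 of the 24 were past the threshold for IAA against control (7 at an unadjusted p under 0.05, 5 higher and 2 lower, or 29.2%, against 10.8% of all probe sets). For BAP against control it was also 0 (4 at an unadjusted p under 0.05, 2 each way, or 16.7%, against 7.57%). For BAP against IAA 1 passed, as higher (8 at an unadjusted p under 0.05, 1 higher and 7 lower, or 33.3%, against 12.7%). Their median log2 change was 0.14 with IAA and -0.11 with BAP, beside -0.01 over all probe sets in both comparisons. These medians moved when certain single arrays were left out. The IAA value was 0.04 without IAA array 1 and between 0.12 and 0.16 without any other single array. The BAP value was -0.01 without BAP array 2, -0.07 without control array 1 and -0.19 without BAP array 1. Without normalization between arrays the IAA value was 0.05, beside -0.08 over all probe sets. All 24 values lay between -0.43 and 1.19 with IAA and between -0.61 and 0.58 with BAP.

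Among the enzyme genes, CYP85A1, which encodes a late enzyme of brassinosteroid synthesis, read 543 ± 11.3 in the control, 423 ± 10.6 with IAA and 666 ± 8.46 with BAP (SD, n = 2 arrays each). It was higher with BAP than with IAA by 0.63 (SE 0.11, limma adjusted p = 0.023), the 1 pathway gene past the threshold in any comparison, and its arrays did not overlap. Its call held in 4 of 14 other settings and was lost without any single array, with adjusted p up to 0.107. Against control its log2 values were -0.35 (SE 0.11, limma adjusted p = 0.265) with IAA and 0.29 (SE 0.11, adjusted p = 0.569) with BAP. Neither passed the threshold. The signs were those of CPD2, which had been picked for its changes and was not distinguished between control and IAA. The other synthesis gene measured, D11, which encodes the P450 enzyme CYP724B1, gave 0.03 with IAA and -0.03 with BAP (limma adjusted p = 0.973 and 0.99). The synthesis genes D2, DWARF4 and CPD1 had no assigned probe set and were not analysed here.

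CYP734A6 was the other inactivation gene with an assigned probe set, whereas CYP734A2 and CYP734A5 were not analysed here. CYP734A6 read 155 ± 25.5 in the control, 291 ± 62.9 with IAA and 188 ± 4.58 with BAP (SD, n = 2 arrays each). Its log2 value against control was 0.84 with IAA (SE 0.18, limma adjusted p = 0.0845) and 0.26 with BAP (SE 0.18, adjusted p = 0.86). It shared the sign of CYP734A4 with IAA but not with BAP, and neither value passed the threshold.

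Apart from the 3 described above, 3 genes of the helix-loop-helix group had a probe set, whereas ILI3, ILI5 and APG were not analysed here. In limma 0 of the 3 passed the threshold against control. At an unadjusted p under 0.05 it was 2 of 3 with IAA (66.7%, against 10.8% of all probe sets) and 1 of 3 with BAP (33.3%, against 7.57%). BC1 (LOC4347540, also called bHLH081), whose product works with an atypical helix-loop-helix protein in setting leaf angle, read 42.5 ± 8.95 in the control, 122 ± 52.0 with IAA and 43.9 ± 7.17 with BAP (SD, n = 2 arrays each). Its log2 value with IAA was 1.19 (SE 0.27, limma adjusted p = 0.0996), and 1.57 without IAA array 2. Without rescaling between arrays BC1 passed upwards (1.07, limma adjusted p = 0.0167). It did not pass against control in any other setting that kept both arrays of each group. BCL1 (LOC4346166, also called bHLH080) gave 0.60 with IAA and 0.58 with BAP (SE 0.21 each, limma adjusted p = 0.303 and 0.507). ILI2 was dim in every group, with means from 12.6 to 18.0.

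Of 18 tested signalling genes 0 passed the limma threshold in any of the 3 comparisons. At an unadjusted p under 0.05 it was 3 with IAA (16.7%, against 10.8% of all probe sets), 2 with BAP (11.1%, against 7.57%) and 5 between the hormones, all lower with BAP (27.8%, against 12.7%). SMOS1, an AP2-type transcription factor gene also called RLA1, read 636 ± 6.05 in the control, 927 ± 2.58 with IAA and 751 ± 32.5 with BAP (SD, n = 2 arrays each), with a log2 value of 0.53 with IAA (SE 0.11, limma adjusted p = 0.0635). BRL1, a receptor kinase gene of the BRI1 family, read 102 ± 8.51, 132 ± 28.6 and 61.6 ± 13.3 in the same order of groups. Its log2 value was -0.61 with BAP against control (SE 0.20, limma adjusted p = 0.433) and -0.93 with BAP against IAA (SE 0.20, adjusted p = 0.0505). The brassinosteroid receptor gene BRI1 itself gave 0.13 with IAA and -0.18 with BAP (limma adjusted p = 0.821 and 0.9).

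**Figure D3:**
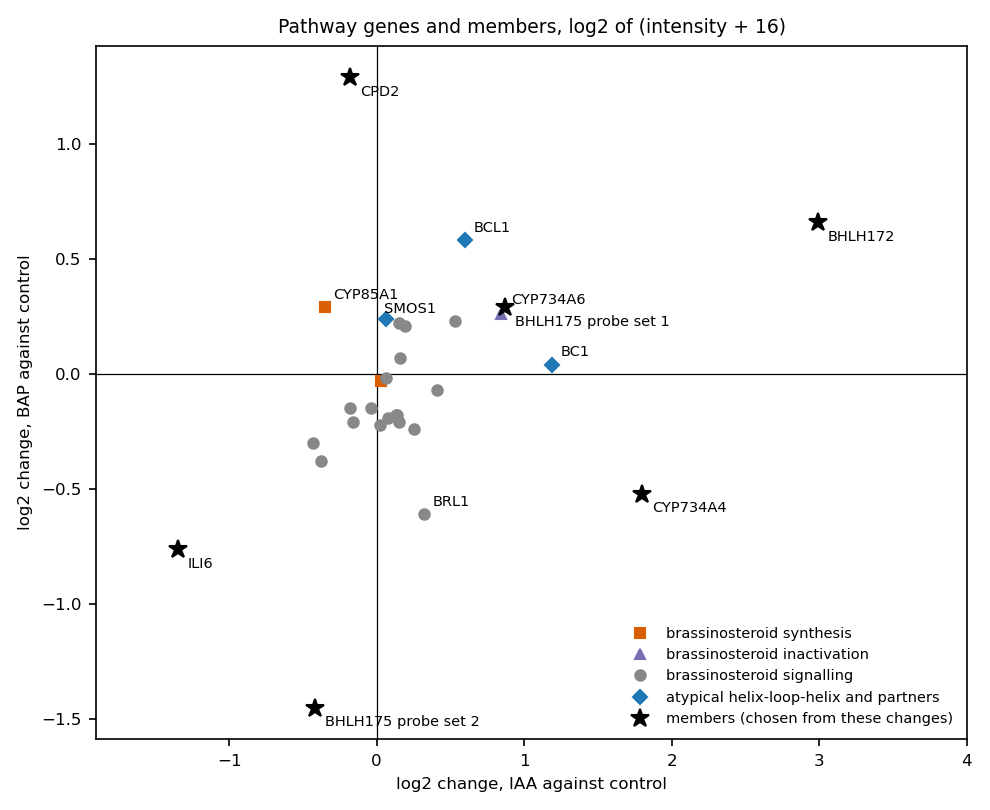
Log2 change of (intensity + 16) with IAA against control (horizontal axis) and with BAP against control (vertical axis), both computed with the same control arrays, for 24 tested pathway genes and the 6 tested probe sets of the 5 genes (stars). The pathway genes lie between -0.43 and 1.19 with IAA and between -0.61 and 0.58 with BAP. The stars reach 2.99 with IAA and 1.29 and -1.45 with BAP. They were chosen for such changes and taken out of the pathway lists, so nothing rests on the difference in spread.

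Likeness between profiles was measured among 2918 tested probe sets of named genes. The measure was the root mean square difference of log2 values, relative to the control mean, over the 6 arrays. The genes described above had been picked because of their changes on these same arrays. By construction, the closest profiles share those changes, so nothing rests on which genes are neighbours, here or in the next paragraph. The profile closest to BHLH172 was that of GH3.4, an auxin-conjugating enzyme gene, at 0.29, followed by the auxin-signalling repressor genes IAA26 at 0.37 and IAA9 at 0.50. For CYP734A4 the closest were the Aux/IAA gene LOC4327919 at 0.29, the auxin-conjugating enzyme gene GH3.1 at 0.32 and the cytokinin-activating enzyme gene LOGL3 at 0.34. LOC4327919 is listed as both IAA4 and IAA20, and its probe set may share probes with related genes. GAPC2, a glyceraldehyde-3-phosphate dehydrogenase gene, was closest to ILI6 at 0.25, followed by the peroxidase gene PRX74 at 0.29 and the aquaporin gene PIP2-4 at 0.30.

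The profiles closest to CPD2 were those of CIN1, a cell-wall invertase gene, at 0.23, the cytokinin dehydrogenase gene CKX3 at 0.31 and the jasmonate repressor gene JAZ13 at 0.32. CIN1 was 1.10 higher with BAP and CKX3 1.45 higher, and both were lower with IAA (-0.50 and -0.59), where CPD2 gave -0.18. BHLH175, represented by probe set 1, lay closest to the glutaredoxin gene GRXS5 at 0.11 and to EL2, which encodes an inhibitor of cyclin-dependent kinases, and SMR1 at 0.14 each. These neighbours describe the bright probe set of BHLH175 only.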

How the data were processed

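Affymetrix rice arrays of 6 seedling samples were used, 2 per group, grouped by sample title. The deposited table holds, for each array, a linear-scale intensity of every probe set. The scanner software, background correction and summary method are not given in the sources used here. Hybridization date and fluidics module were read from the file headers.

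After leaving out 187 array controls, log2(intensity + 16) was computed and quantile normalized. The added 16 shrinks the changes of dim probe sets. Probe sets with a mean under the 40th percentile (4.70) were left out, which kept 34316 of 57194. Group means were fitted with limma 3.58.1 (R 4.3.3) over all 6 arrays with an intensity trend, leaving 3 residual degrees of freedom. Every p is two-sided and, unless called unadjusted, adjusted by Benjamini-Hochberg over all tested probe sets, with 0.05 as threshold. Printed intensities have the 16 subtracted again. The fit was tested on simulated data. Tables and plots were made in Python 3.11.15 with pandas 2.3.3 and matplotlib 3.10.9.

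Gene names came from the platform annotation joined by gene number to RefSeq genes of a japonica assembly. The annotation paired 22436 probe sets with 1 gene and 95 with several, and 34663 were unnamed here. All 22436 gene numbers matched that table. Of the named pathway genes, 34 other than the 5 described were in the table, and 25 of these had a probe set. A pair of symbols was dropped because it belonged to genes of other function. The 5 genes and the gene lists were chosen with earlier results of these data known. Pathway genes named in the text were those past the threshold in any comparison and, in each list, up to 2 others with the largest change; BRI1 and ILI2 were added after their values were seen. Profile neighbours were the 3 closest named genes. Gene sequences were not used here.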

Additional observations from a re-analysis of the deposited data

How the results depend on the processing

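The 21 log2 changes of the 7 probe sets were recomputed in 14 other settings each, and 292 of 294 values kept their sign. This count was nearly fixed beforehand, so no robustness is read from it. Several settings leave a log2 change as it is. Leaving out 1 array can hardly reverse a sign where the arrays of the groups compared do not overlap. The exceptions, both for BHLH175 probe set 3 between BAP and IAA, were close to 0. Among these log2 changes it was the only one with overlapping arrays. A pseudocount of 64 in place of 16 brought the changes closer to 0 and one of 1 widened them for dim probe sets: BHLH175 probe set 2 ranged from -0.86 to -1.86 with BAP against control and ILI6 from -0.92 to -1.60 with IAA. The number of probe sets past the threshold varied with the processing. For IAA against control (292) it was 68 with dim probe sets kept, 502 without normalization between arrays, 92 without an intensity trend and 85 to 287 with 1 array left out. For BAP against control (94) it was 14, 210 and 13 in these settings, 60 with each array centred on its median and 13 to 92 with 1 array left out. For BAP against IAA (769) it was 234 with dim probe sets kept, 223 without the trend and 310 to 591 with 1 array left out. Without normalization 244 were higher and 258 lower with IAA, against 217 and 75, and 625 higher and 349 lower between BAP and IAA, against 381 and 388. The median log2 change over all probe sets was -0.08 and 0.08 in those comparisons without normalization, against -0.01 and 0 with it. The cause was not tested. The count of pathway genes called with IAA was 1 without normalization and 0 to 1 with 1 array left out, BC1 in both cases, and 0 in the other settings. With BAP it was 0 in each setting. Same-numbered arrays shared little deviation from their group means, with r of 0.0174, 0.0264 and -0.0595 across probe sets. These values cannot tell whether same-numbered samples were grown or processed together. A replicate block gave 320, 95 and 756 calls and 0 pathway genes against control. Dim probe sets such as BHLH175 probe set 3 allow no statement on change.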
